A study of Mus musculus with 18 samples.

Results

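The genes described here are 33 autism risk genes that act in chromatin and transcription, taken from a fixed list of symbols and not from any value of these data. Of them, 28 had at least 1 probe set assigned to a single gene on the arrays, out of 17097 genes measured in this way. Chd2 and Kdm6b were represented only by probe sets with several gene symbols and are not analysed here, and no probe set was assigned to Arid1b, Kmt2a or Ash1l in the table used here. Each gene was followed through its probe set with the highest mean, and all 85 probe sets of the 28 genes were examined. All 28 passed the filter on low levels, which kept 12823 genes.

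The study profiled 1 joint dissection of cortex and striatum per mouse at an age of 6 weeks. The groups were WT, CPEB4 GT/+ (1 copy of the GT allele of Cpeb4, an abbreviation that the labels do not expand) and CPEB4 KO, with 2 animals each. The labels give no promoter, Cre driver, strain or sex for these animals. Each animal gave 3 arrays, 18 in all: INPUT (total RNA), WASH (RNA released from poly(U) agarose by 25% formamide, enriched for short poly(A) tails) and ELUTED (RNA released by 90% formamide, enriched for long tails). The tail-fraction ratio used below is the difference between an animal's ELUTED and WASH values (log2 ELUTED minus log2 WASH), so a positive ratio lies on the long-tail side. The tissue is bulk, so fewer cells of a type and less RNA per cell cannot be told apart.

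CPEB4 belongs to a family of RNA-binding proteins that recognise elements in the 3′ untranslated regions of mRNAs and recruit enzymes that lengthen or shorten the poly(A) tail, which in turn bears on translation and stability. The genes examined here encode proteins that work at the other end of gene expression. They remodel nucleosomes, add or remove methyl groups on histones, form co-repressor complexes, bind DNA as transcription factors or link such factors to RNA polymerase through Mediator. Many are dosage-sensitive, and loss of 1 copy in humans is associated with autism or intellectual disability.

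The values are on the log2 scale. Across genes, which are not independent replicates, Pearson's r was 0.877 to 0.986 between arrays of different fractions and 0.979 to 0.994 between both animals of a genotype in the same fraction, except for the CPEB4 GT/+ ELUTED arrays, which correlated at 0.966. ELUTED arrays had a narrower spread over probe sets than WASH arrays (SD of 1.78 to 1.90 against 1.96 to 2.01) and lower 3′ minus 5′ values of the Actb controls (-0.47 to -0.31 against -0.21 to -0.06). The CPEB4 GT/+ ELUTED arrays were at both ends of these ranges, with SDs of 1.90 and 1.78 and Actb values of -0.31 and -0.47. In 8 of the 28 genes the CPEB4 GT/+ animals had both the lowest and the highest ratio of ELUTED over WASH. The share of all genes with this pattern was not counted, so it cannot be called particular to the 28 genes. Whether these differences between arrays enter the ratios was not tested, and values without each CPEB4 GT/+ animal are given with the first comparison. Cpeb4 itself had INPUT levels of 8.15 and 7.62 in the WT animals, 7.31 and 7.002 in CPEB4 GT/+ and 6.62 and 6.91 in CPEB4 KO, with no overlap between genotypes. The difference of CPEB4 KO from WT was -1.12 (SE 0.19, limma adjusted p = 0.253), so the targeted gene itself did not pass the adjusted test. Markers of cortical excitatory neurons (7 of 7 measured) and of striatal projection neurons (7 of 7) were above the filter, with list means of 8.76 to 8.999 and 9.19 to 9.49 per animal. So were those of choroid plexus (5 of 5) and of hypothalamus and pituitary (6 of 7), so passing the filter does not define the region. INPUT of CPEB4 KO minus WT was 1.53 for Ttr (choroid plexus list median 0.01) and -1.35 for Gh (hypothalamus and pituitary list median -0.15). For Pmch, CPEB4 GT/+ minus WT was -1.92 (list median -0.28). Whether the dissections differed was not tested.

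The first comparison asked on which side of the tail fractionation these mRNAs lay, over the 6 animals of the 3 genotypes. The 28 genes were divided: 12 were higher in ELUTED, 9 were higher in WASH and 7 did not pass the test. The highest ratios belonged to Zbtb20, a zinc-finger repressor, Kmt2c, a histone methyltransferase of enhancers, Auts2, a partner of a Polycomb complex, and Ankrd11, a chromatin cofactor. The lowest belonged to Ilf2, a subunit of a complex that binds double-stranded RNA, and to Myt1l, a neuronal zinc-finger repressor. Over all 12823 genes the test (limma, adjusted p under 0.05) called 24.9% higher and 48.5% lower in ELUTED, 73.4% in either direction. The median ratio of the 28 genes was 0.06, against -0.18 for all genes tested. Without CPEB4 GT/+ animal 1 these medians were 0.0044 and -0.21, and without animal 2 they were 0.10 and -0.16. In each of the 6 animals the median over the 28 genes lay above that over all genes, by 0.26 ± 0.05 (SD, n = 6).

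The zero of the ratio depends on how the arrays are set against each other. In the deposited values the array medians differed between fractions, at 6.43 to 6.48 in ELUTED and 6.32 to 6.36 in WASH. When arrays were aligned by their hybridisation control probes, 2 of the 28 genes were higher and 16 lower, beside 1.73% and 74.4% of all genes, and the median of all genes moved to -0.68. With quantile normalization 19 were higher and 3 lower, beside 37.1% and 33% of all genes, and the median of all genes was 0.04. With arrays centred on their medians 14 were higher and 8 lower, beside 32.8% and 40.9%. Under the deposited values and these 3 other scalings alike, 5 genes were called in the same direction: Zbtb20 and Kmt2c as higher in ELUTED, and Asxl3, Myt1l and Ilf2 as lower. Directions given below for the other genes are relative to the deposited scaling.

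**Figure D1:**
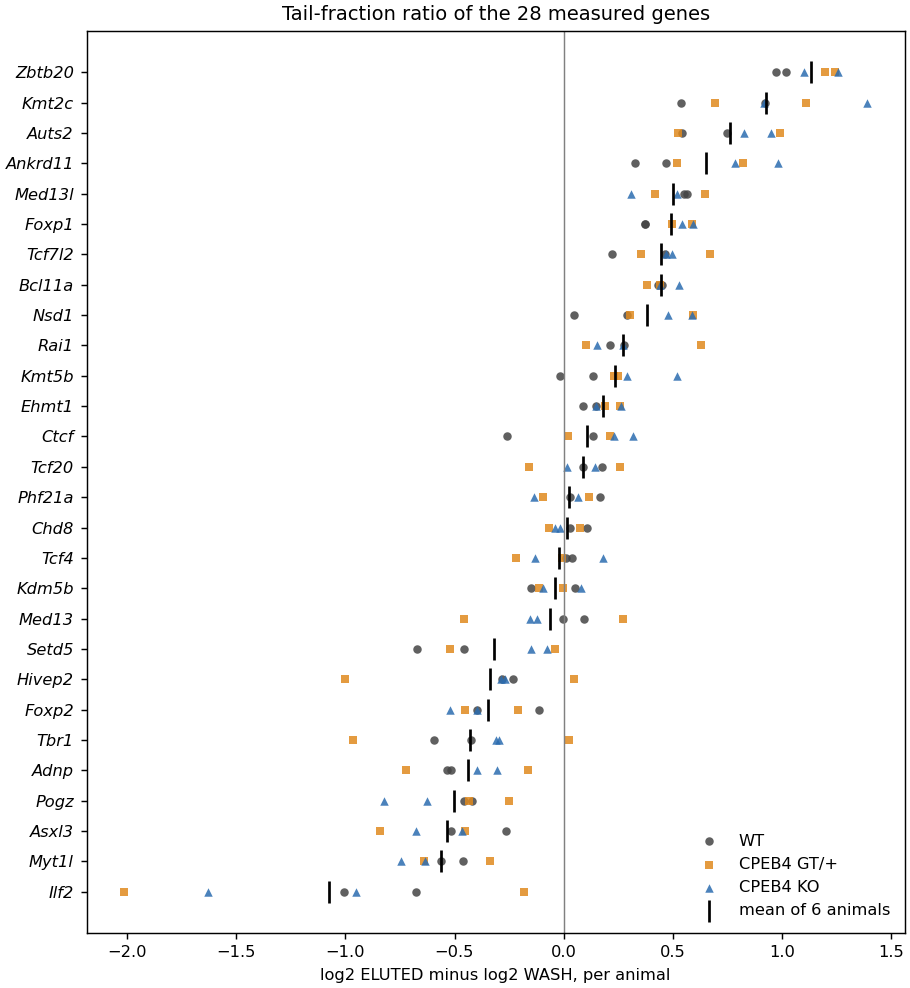
The log2 ELUTED minus log2 WASH value is shown on the horizontal axis for each of the 28 genes, with 1 symbol per animal by genotype and a bar at the mean of 6 animals. Zbtb20 lies near 1.13 with closely grouped animals, whereas the animals of Ilf2 spread from -2.02 to -0.18.

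Of the 3 nucleosome remodellers and their DNA-binding partners, 0 were higher and 2 lower in ELUTED. Chd8, a remodelling ATPase of the chromodomain family, stood at 0.02 (SE 0.07), with 3 animals above 0 and 3 below. Adnp, a homeodomain protein that works with a chromodomain remodeller and heterochromatin protein, was lower in ELUTED in 6 of 6 animals, with a mean of -0.44 (SE 0.09, adjusted p = 0.00240). Its animals stood at -0.51 and -0.53 in WT, -0.16 and -0.72 in CPEB4 GT/+ and -0.40 and -0.30 in CPEB4 KO. All lay on the short-tail side, and the CPEB4 GT/+ animals were farther apart than those of the other genotypes. Pogz, a zinc-finger protein that binds heterochromatin protein, had ratios of -0.42 and -0.46 in WT, -0.25 and -0.43 in CPEB4 GT/+ and -0.62 and -0.82 in CPEB4 KO, a mean of -0.50 (SE 0.07, adjusted p = 0.000460). The CPEB4 KO animals were the lowest, and the animals of the other genotypes overlapped.

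Of the 6 genes of histone methylation, 4 were higher in ELUTED and 1 lower. Kmt2c had ratios of 0.92 and 0.54 in WT, 0.69 and 1.11 in CPEB4 GT/+ and 0.92 and 1.39 in CPEB4 KO. All animals lay on the long-tail side, and the mean of 0.93 (SE 0.10, adjusted p = 0.000129) was a 1.90-fold higher ELUTED than WASH value. Nsd1, a methyltransferase whose loss causes an overgrowth syndrome, was higher by 0.38 (SE 0.08), and all 6 animals were above 0, from 0.05 in a WT to 0.59 in a CPEB4 GT/+ animal. Kmt5b, a methyltransferase of histone H4, was higher by 0.24 in 5 of 6 animals, and Ehmt1, a methyltransferase of a repressive mark, by 0.18 in 6 of 6. Setd5, a SET-domain regulator, was lower in ELUTED, at -0.32 (SE 0.09). Its WT animals, at -0.46 and -0.67, and 1 CPEB4 GT/+ animal at -0.52 were well below the remaining 3, which stood at -0.15 to -0.04. Kdm5b, a histone demethylase, was at -0.04 and not called.

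Of 6 other chromatin regulators, 3 were higher and 1 lower. Auts2 had ratios of 0.75 and 0.54 in WT, 0.52 and 0.99 in CPEB4 GT/+ and 0.95 and 0.83 in CPEB4 KO, a mean of 0.76 (SE 0.09). Ankrd11 was higher by 0.65 (SE 0.08), with 6 of 6 animals above 0. Rai1, the chromatin-bound regulator deleted in Smith-Magenis syndrome, was higher by 0.27 (SE 0.09). Asxl3, a partner of a histone deubiquitinase, was lower in ELUTED, at -0.54 (SE 0.09), and its animals ran from -0.84 to -0.26. Phf21a, a histone reader of a demethylase co-repressor complex, at 0.02, and Ctcf, the organiser of chromatin loops, at 0.11 were not called.

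The 10 transcription factors and their co-regulators were evenly divided, with 4 higher and 4 lower. Zbtb20 had ratios of 1.02 and 0.97 in WT, 1.24 and 1.20 in CPEB4 GT/+ and 1.10 and 1.26 in CPEB4 KO. All animals were close together on the long-tail side, and the mean of 1.13 (SE 0.07, adjusted p = 3.93e-05) was a 2.19-fold higher ELUTED than WASH value. The forkhead factor Foxp1 was higher by 0.49, Tcf7l2, the nuclear effector of Wnt signalling, by 0.45 and Bcl11a, a zinc-finger factor of projection neurons, by 0.45, each in 6 of 6 animals. Foxp2, the paralog of Foxp1, went the other way, with a ratio of -0.35 (SE 0.08) and 6 of 6 animals below 0. The paralogs thus lay on opposite sides of 0 at their probe sets with the highest means.

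Myt1l had ratios of -0.56 and -0.46 in WT, -0.34 and -0.64 in CPEB4 GT/+ and -0.74 and -0.64 in CPEB4 KO, with a mean of -0.56 (SE 0.08, adjusted p = 0.000313). All animals were on the short-tail side at this probe set. Tbr1, a factor of deep-layer cortical neurons, was lower in ELUTED, at -0.43 (SE 0.12), and so was Hivep2, a zinc-finger factor, at -0.34 (SE 0.13), each in 5 of 6 animals. In both genes the CPEB4 GT/+ animals were the lowest and the highest of the 6, at -0.96 and 0.02 for Tbr1 and at -1.003 and 0.05 for Hivep2. Tcf4, the helix-loop-helix factor of Pitt-Hopkins syndrome, was at -0.02 and Tcf20, a co-regulator related to Rai1, at 0.09, and neither was called.

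Of the last 3 genes, 1 was higher and 1 lower. Med13l, of the kinase module of Mediator, was higher by 0.50 (SE 0.07), with animals from 0.31 to 0.65. Its paralog Med13 was at -0.06, and its CPEB4 GT/+ animals stood at 0.27 and -0.45. Ilf2 had ratios of -1.01 and -0.68 in WT, -0.18 and -2.02 in CPEB4 GT/+ and -0.95 and -1.63 in CPEB4 KO. All were below 0, but the spread between animals, an SD of 0.66, was the widest of the 28 genes, and the mean of -1.08 (SE 0.21, adjusted p = 0.00209) was a 2.11-fold higher WASH than ELUTED value.

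Counted without a model, 11 of the 28 genes had all 6 animals above 0 and 7 had all 6 below, 18 in all, beside 71.5% of all genes tested (23.7% above and 47.8% below). Without 1 animal of WT or of CPEB4 KO, which also leaves fewer residual degrees of freedom, Ehmt1, Hivep2, Rai1, Kmt5b, Setd5 and Tbr1 lost their calls in at least 1 such fit, with limma adjusted p-values up to 0.180. In the fits where they lost their calls, the ratios ran from 0.16 to 0.20 for Ehmt1 and from -0.35 to -0.33 for Hivep2. Both CPEB4 GT/+ animals remained in those fits. For Hivep2 (0.05 and -1.003) and Tbr1 (0.02 and -0.96) these animals were the extremes of the 6, so the small range for Hivep2 does not cover their spread. The other 15 called genes passed in all 6 fits with 1 animal left out.

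A list of 82 paralogs and complex partners of these genes, 73 of them tested, had 17 higher and 35 lower. These counts are near the shares of all genes, 24.9% and 48.5%. The largest ratios there belonged to Setd1b, a histone methyltransferase (1.06), Chd7, a chromodomain remodeller (1.01), and the cohesin loader Nipbl (0.90). The lowest belonged to Dpy30, a shared subunit of methyltransferase complexes (-1.77), the cohesin subunit Stag2 (-1.65) and the Polycomb subunit Eed (-1.19). The median of the list was -0.19, close to that of all genes tested.

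WT animals alone gave fewer calls. In WT 5 of the 28 genes were higher in ELUTED: Zbtb20 (1.00, SE 0.12), Kmt2c (0.73), Auts2 (0.65), Med13l (0.56) and Bcl11a (0.44). Setd5 (-0.57), Adnp (-0.52), Myt1l (-0.51) and Pogz (-0.44) were lower. Over all genes 4.74% were called higher and 22.2% lower in WT, 26.9% in either direction. Ilf2 stood at -0.84 (SE 0.37, adjusted p = 0.114), and Foxp1 at 0.37 (adjusted p = 0.0503) and Ankrd11 at 0.40 (adjusted p = 0.0606) were also outside the threshold. In WT 24 of the 28 genes had both animals on the same side of 0, beside 87.3% of all genes. Without either WT animal 0 of the 28 genes were called (limma); 3 and 5 of them had an unadjusted p under 0.05, as did 2003 and 2918 of all genes. The animals of the other genotypes enter the WT test through the shared spread: without either CPEB4 GT/+ animal it called 8 higher and 7 lower (12.8% and 37.5% of all genes), and without either CPEB4 KO animal 4 and 0 (2.21% and 12%). Of the partner list, 7 were higher and 21 lower in WT, led by Chd7 (0.87), Setd1b (0.78) and Nipbl (0.75) and by Stag2 (-1.35), Dpy30 (-1.24) and Eed (-1.12).

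INPUT showed for each gene whether a ratio came with a difference of ELUTED, of WASH or of both from total RNA. Zbtb20 was lower in WASH than in INPUT by 0.58 ± 0.14 (SD, n = 6) and higher in ELUTED than in INPUT by 0.55 ± 0.10. Kmt2c had a mean of -1.12 ± 0.20 for WASH minus INPUT and of -0.19 ± 0.14 for ELUTED minus INPUT, so that both fractions had lower values than total RNA and WASH much the lower. Nsd1 had the same order, with -0.85 ± 0.18 for WASH and -0.47 ± 0.20 for ELUTED. For Med13l the order was different, with -0.05 ± 0.18 for WASH and 0.45 ± 0.15 for ELUTED.

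On the short-tail side, Ilf2 was higher in WASH than in INPUT by 0.54 ± 0.20 and stood at -0.54 ± 0.64 in ELUTED. Asxl3 and Tbr1 were higher in WASH by 0.49 ± 0.24 and 0.40 ± 0.14 and near INPUT in ELUTED, at -0.05 ± 0.20 and -0.03 ± 0.39. Hivep2 was near INPUT in WASH, at -0.01 ± 0.07, and stood at -0.35 ± 0.31 in ELUTED. The mean differences of WASH and of ELUTED from INPUT had opposite signs in 16 of the 28 genes, 57.1%, beside 68.4% of all genes tested.

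With INPUT in place of WASH as the denominator, 6 of the 28 genes were called higher in ELUTED (Zbtb20, Med13l, Auts2, Ehmt1, Tcf7l2 and Bcl11a) and 4 lower (Nsd1, Hivep2, Adnp and Pogz), beside 14.6% and 29.5% of all genes. Kmt2c (-0.19), Kmt5b (-0.18) and Nsd1 (-0.47), higher in ELUTED than in WASH, were on the other side of 0 against INPUT, and Setd5 stood at 0.05.

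**Figure D2:**
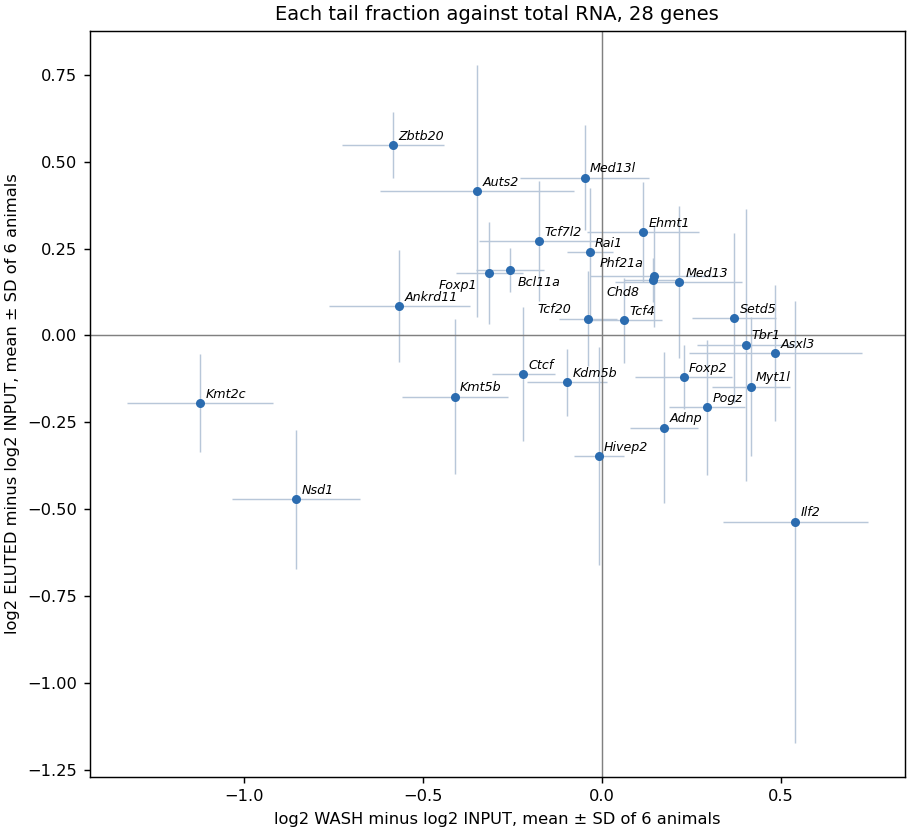
For each of the 28 genes the mean log2 difference of WASH from INPUT (horizontal axis) is set against that of ELUTED from INPUT (vertical axis), with bars of 1 SD over 6 animals. Zbtb20 and Ilf2 lie in opposite corners, and Kmt2c and Nsd1 lie on the left below 0, with both fractions under INPUT.

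Different probe sets of the same gene often went different ways. Of the 24 genes with more than 1 probe set above the filter, 15 (62.5%) had mean ratios of both signs, beside 40.6% of the 5044 such genes overall. With 2 probe sets this held for 4 of 11 (32.5% of all such genes), and with 3 or more for 11 of 13 (54.3%). Where each probe set lies in its transcript is not given in the sources used here.

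Zbtb20 was the most uniform of the genes with 4 probe sets, with means of 1.13, 1.19, 1.24 and 0.89 and 6 of 6 animals above 0 at each. Kmt2c was split: its probe set with the highest mean and another stood at 0.93 and 0.83 with 6 of 6 animals above 0, and its other two at -0.42 and -0.61 with 6 of 6 below. Myt1l had ratios of -0.56, 0.09, -0.29 and 1.05 at its 4 probe sets, so that its mean over probe sets, 0.07, had the opposite sign to its main value. The direction for Myt1l thus depends on the probe set, and that for Kmt2c does too.

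Foxp1 had 7 probe sets with means from -0.10 to 1.58, of which 6 were above 0. Foxp2 had 4 above the filter, with means of -0.35, 0.05, -0.47 and -1.37. Ankrd11 had 6, from -0.15 to 1.15, with 5 above 0, and Kmt5b had 5, from -0.46 to 0.89. Ctcf, not called at its main probe set, stood at -0.70 at its second, with 6 of 6 animals below 0. Chd8, also not called, had 2 further probe sets at 0.44 and 0.56, with 6 of 6 animals above 0 at each. Pogz had means of -0.50, -0.68, 0.02 and 0.41.

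Nsd1 had probe sets at 0.38 and -0.34, Setd5 at -0.32 and 0.24, Asxl3 at -0.54 and 0.17 and Bcl11a at 0.45, -0.24 and 0.28. Of Med13, 2 further probe sets stood at 0.30 and 0.48, and those of Tcf4 and Phf21a ran from -0.16 to 0.24 and from -0.35 to 0.18. Both probe sets of Ilf2 were on the short-tail side, at -1.08 and -0.41, with 6 of 6 animals below 0 at each. Both of Auts2 were on the long-tail side, at 0.76 and 0.24, as were those of Rai1, at 0.27 and 0.68, and of Med13l, at 0.50 and 0.16.

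**Figure D3:**
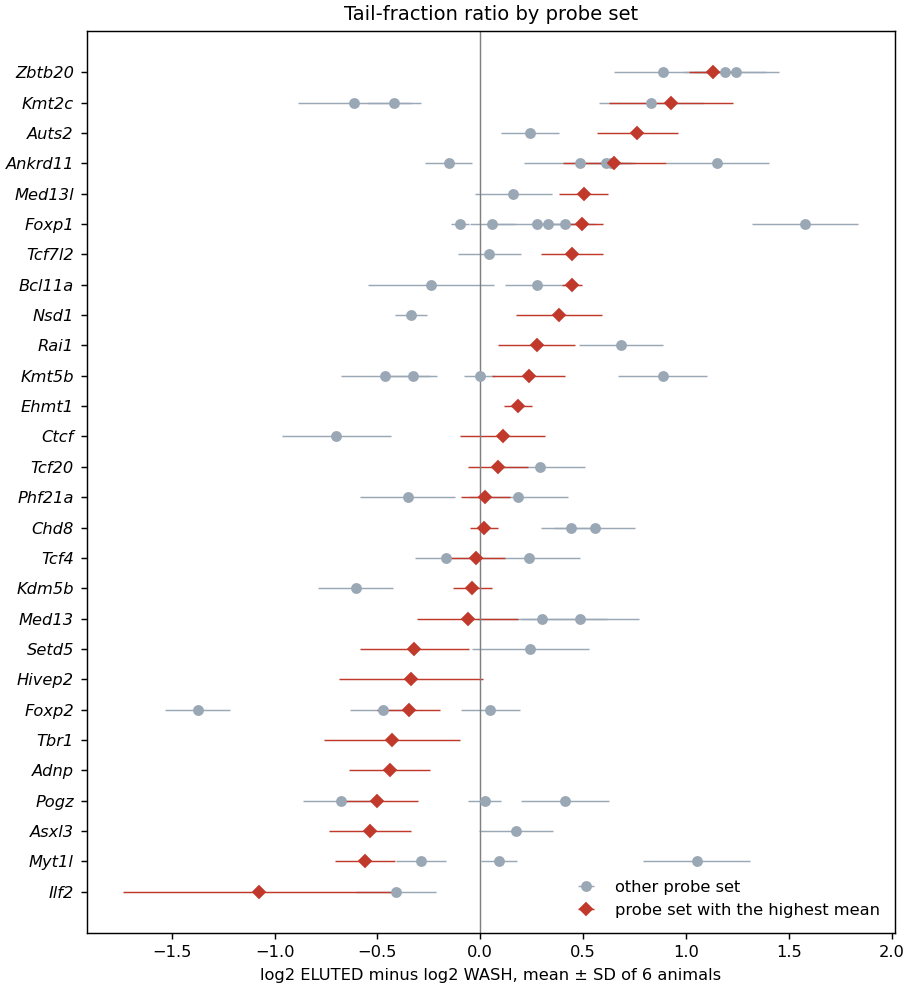
The mean log2 ELUTED minus log2 WASH value of every probe set above the filter is shown with bars of 1 SD over 6 animals, with the probe set of the highest mean as a diamond and the others as circles. The probe sets of Zbtb20 cluster between 0.89 and 1.24, whereas those of Kmt2c, Myt1l and Foxp1 lie far apart.

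The next comparisons asked whether the total RNA level of these genes differed by genotype. With limma 0 of the 28 genes were called in INPUT in CPEB4 KO against WT, in CPEB4 GT/+ against WT or in CPEB4 KO against CPEB4 GT/+, and 0% of all genes were called in each. At an unadjusted p under 0.05 there were 2 of the 28 genes in CPEB4 KO against WT (10.9% of all genes), 3 in CPEB4 GT/+ against WT (3.42%) and 2 in CPEB4 KO against CPEB4 GT/+ (8.13%). The median SE of a difference was 0.11. The comparisons share animals, so their values are not independent of each other.

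Med13 had INPUT levels of 8.51 and 8.49 in WT, 8.79 and 8.74 in CPEB4 GT/+ and 8.79 and 9.04 in CPEB4 KO. The WT animals were the lowest. The difference from WT was 0.42 in CPEB4 KO (SE 0.11, adjusted p = 0.385) and 0.26 in CPEB4 GT/+ (SE 0.11, adjusted p = 1.00). Its next probe set by level had 0.26 and 0.18, and its last above the filter -0.07 and 0.19.

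Tcf7l2 had INPUT levels of 8.93 and 8.75 in WT, 8.45 and 8.62 in CPEB4 GT/+ and 9.06 and 9.02 in CPEB4 KO. The CPEB4 GT/+ animals were the lowest and the CPEB4 KO animals the highest, with no overlap. CPEB4 KO minus CPEB4 GT/+ was 0.51 (SE 0.11, adjusted p = 0.428), and CPEB4 GT/+ minus WT was -0.31 (adjusted p = 1.00). The second probe set above the filter had the same order, with differences of 0.64 and -0.18. When arrays were aligned by their hybridisation control probes, the difference of CPEB4 KO from CPEB4 GT/+ was 0.66 and passed the test, as did 2.78% of all genes in that direction, and the median of all genes moved from 0.02 to 0.17. Tcf7l2 is known for its high level in thalamic neurons. Of 8 listed thalamic markers, 7 were above the filter and 1, Gbx2, was below it in every genotype. Of the 7, 6 were above 0 in CPEB4 KO minus CPEB4 GT/+ (median 0.10) and 3 in CPEB4 GT/+ minus WT (median -0.08). The list mean over all 8, Gbx2 included, was 6.97 to 7.41 in WT, 7.09 to 7.16 in CPEB4 GT/+ and 7.25 to 7.30 in CPEB4 KO. List means of oligodendrocyte and astrocyte markers were lowest in CPEB4 GT/+, as Tcf7l2 was, with larger median differences than the thalamic list. Choroid plexus markers also had larger median differences, with 4 of 5 above 0 in CPEB4 KO minus CPEB4 GT/+ (median 0.15). In CPEB4 GT/+ minus WT 0 of 5 were (median -0.16). Their list means overlapped between genotypes, at 6.66 to 7.42 in WT, 6.20 to 7.39 in CPEB4 GT/+ and 7.05 to 7.58 in CPEB4 KO. Microglia markers had another order. Of oligodendrocyte markers 5 of 5 were above 0 in CPEB4 KO minus CPEB4 GT/+ (median 0.21) and 0 of 5 in CPEB4 GT/+ minus WT (median -0.16), with list means of 10.26 to 10.27 in WT, 10.04 to 10.09 in CPEB4 GT/+ and 10.25 to 10.29 in CPEB4 KO. Of astrocyte markers 5 of 6 (median 0.20) and 1 of 6 (median -0.14) were above 0, with list means of 9.64 to 9.71, 9.53 to 9.61 and 9.77 to 9.89. For oligodendrocytes the ranges of WT and CPEB4 KO overlapped, unlike those of Tcf7l2. Of microglia markers 5 of 6 (median 0.21) and 5 of 6 (median 0.06) were above 0, with list means of 8.46 to 8.65, 8.58 to 8.69 and 8.81 to 8.87. The part of these markers in the Tcf7l2 values was not tested.

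Foxp1 had INPUT levels of 11.17 and 11.21 in WT, 11.23 and 11.31 in CPEB4 GT/+ and 11.36 and 11.66 in CPEB4 KO. The CPEB4 KO animals were the highest, with a difference from WT of 0.32 (SE 0.12, adjusted p = 0.417). Its probe sets did not go one way: 2 others stood at -0.25 and -0.46 for the same difference. Tbr1 had 8.66 and 8.83 in WT, 9.05 and 9.14 in CPEB4 GT/+ and 8.88 and 9.20 in CPEB4 KO. Its WT animals were the lowest, and CPEB4 GT/+ differed from WT by 0.35 (SE 0.13, adjusted p = 1.00). The markers of cortical excitatory neurons, the cells in which Tbr1 acts, were above 0 in 7 of 7 genes for the same difference (median 0.08). Their list mean was 8.76 to 8.85 in WT and 8.83 to 8.999 in CPEB4 GT/+. Markers of striatal projection neurons were likewise above 0 in 7 of 7 genes (median 0.09), so this was not particular to the cortical list. The part of either list in the Tbr1 values was not tested.

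Phf21a had 7.21 and 7.19 in WT, 7.08 and 6.99 in CPEB4 GT/+ and 7.28 and 7.25 in CPEB4 KO. CPEB4 GT/+ was lowest, with a difference of CPEB4 KO from it of 0.23 (SE 0.09, adjusted p = 0.601), against -0.11 and -0.0012 at its other probe sets. Auts2 was at -0.19 against WT in both CPEB4 GT/+ and CPEB4 KO, with no overlap between the mutant and the WT animals (limma adjusted p = 1.00 and 0.510), but its other probe set stood at 0.10 and 0.07.

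**Figure D4:**
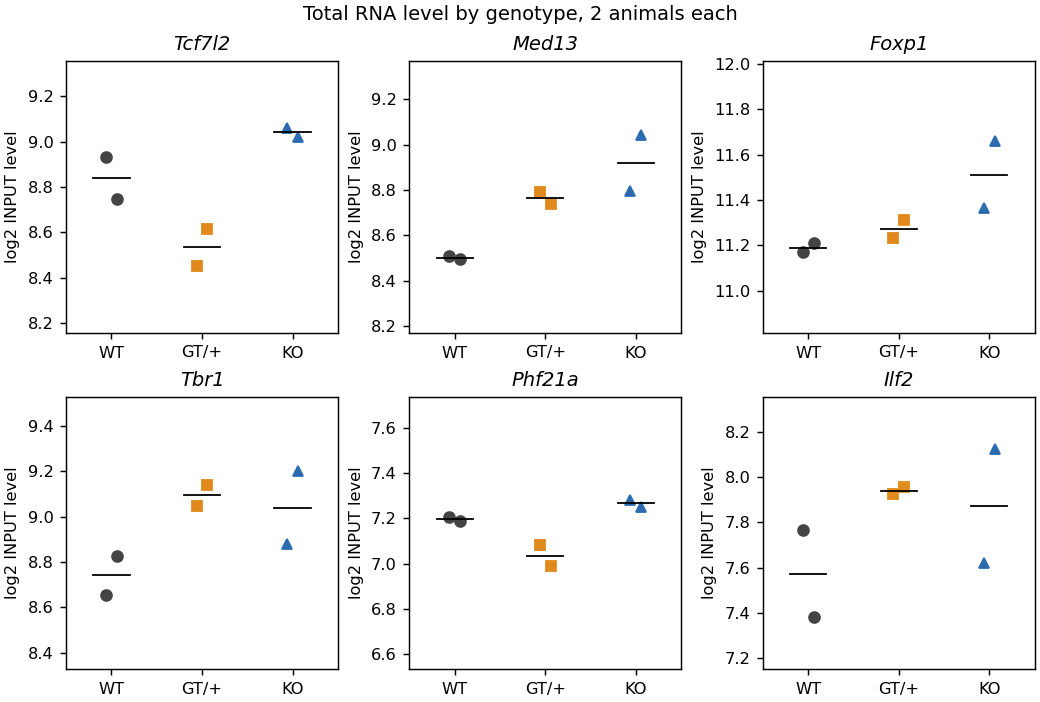
The log2 INPUT level of 6 genes is shown for the 2 animals of each genotype, with a bar at the genotype mean; each vertical axis spans the same log2 range but starts at its own level. The CPEB4 GT/+ animals are the lowest for Tcf7l2 and Phf21a, and the WT animals are the lowest for Med13, Foxp1 and Tbr1.

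Differences without overlap between animals were counted as well. CPEB4 KO against WT had 11 of 28 (43.1% of all genes), CPEB4 KO against CPEB4 GT/+ 9 of 28 (38.1%) and CPEB4 GT/+ against WT 16 of 28 (31.9%). The median difference of the 28 genes was 0.10, 0.01 and 0.07 in that order, against 0.03, 0.02 and 0.00 for all genes. With 1 animal left out these medians of the 28 genes ran from 0.02 to 0.18, from -0.04 to 0.10 and from 0.05 to 0.09. The first 2 were lowest without CPEB4 KO animal 2 and highest without animal 1. In CPEB4 KO against WT the 10 transcription factors and co-regulators had differences from 0.00 to 0.32. All 10 were above 0, beside 57.2% of all genes, and 0 passed the test. CPEB4 KO animal 1 was below the WT mean for Foxp2 (8.83 against 8.95), Tcf4 (9.98 against 10.03), Tcf20 (9.83 against 9.89) and Myt1l (9.84 against 9.91), and above it for the remaining factors. At other probe sets values below 0 occurred only for Foxp1 and for Myt1l (-0.06, -0.06 and -0.28). Markers of microglia (6 of 6, median 0.33) and of endothelial cells (5 of 5, median 0.32) were above 0 in the same comparison, with list means per animal of 8.46 to 8.65 in WT and 8.81 to 8.87 in CPEB4 KO for microglia and 7.81 to 7.84 and 8.04 to 8.20 for endothelial cells. Their part in the values of the 28 genes was not tested.

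The last comparisons asked whether the tail-fraction ratio differed by genotype. With limma 0 of the 28 genes were called in any of the 3 pairs of genotypes, and 0% of all genes. At an unadjusted p under 0.05 there was 1 in CPEB4 KO against WT (6.17% of all genes), 0 in CPEB4 GT/+ against WT (0.897%) and 0 in CPEB4 KO against CPEB4 GT/+ (1.85%). Without CPEB4 GT/+ animal 1 the numbers at an unadjusted p under 0.05 were 3, 6 and 4 of the 28 genes in that order, beside 18%, 28.5% and 12.5% of all genes. Without animal 2 they were 3, 3 and 3, beside 18%, 1.55% and 18%, with 0 called in each fit. The median SE of a difference in ratio was 0.19, so that differences of the size seen here could not be told from the spread between animals.

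The gene at an unadjusted p under 0.05 was Ankrd11. Its ratios were 0.47 and 0.33 in WT, 0.52 and 0.82 in CPEB4 GT/+ and 0.79 and 0.98 in CPEB4 KO. The WT animals were the lowest, and the mutants overlapped. CPEB4 KO minus WT was 0.49 (SE 0.19, adjusted p = 0.756), and its other 5 probe sets had 0.42, 0.50, -0.04, 0.19 and 0.10. The 6 genes of histone methylation had differences from 0.04 for Kdm5b to 0.45 for Setd5 in CPEB4 KO against WT, with Kmt2c at 0.42, Nsd1 at 0.36, Kmt5b at 0.35 and Ehmt1 at 0.09. All 6 values were above 0, as were 44.0% of all genes. Of them, 4 had no overlap between animals, beside 51.9% of all genes. Other probe sets of Kmt5b stood at 0.32, -0.16, 0.09 and -0.02, and those of Setd5 and Nsd1 at 0.27 and 0.09. The split probe sets of Kmt2c differed here too, with 0.17, -0.12 and -0.21 at the other 3.

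Med13 (-0.18), Med13l (-0.14) and Ilf2 (-0.45, SE 0.52) were below 0 in CPEB4 KO against WT. Pogz stood at -0.29 against WT and at -0.38 against CPEB4 GT/+ (SE 0.18, limma adjusted p = 1.00). Its other 3 probe sets did not share these values, at 0.02, -0.0030 and 0.22 against WT and -0.12, 0.07 and 0.32 against CPEB4 GT/+. The other probe set of Med13l and both others of Med13 were above 0, at 0.07, 0.17 and 0.09, and that of Ilf2 was at -0.18. No overlap between animals was seen for 17 of the 28 genes in CPEB4 KO against WT (51.9% of all genes), 7 in CPEB4 GT/+ against WT (21.8%) and 3 in CPEB4 KO against CPEB4 GT/+ (21.6%). The median difference of the 28 genes in CPEB4 KO against WT was 0.04, against -0.04 for all genes, and the same medians in CPEB4 GT/+ against WT were 0.06 and -0.03. With 1 animal left out the medians of the 28 genes ran from 0.02 (without WT animal 2) to 0.11 (without CPEB4 KO animal 1) and from -0.03 (without CPEB4 GT/+ animal 1) to 0.13 (without animal 2), so that the latter changed sign.

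**Figure D5:**
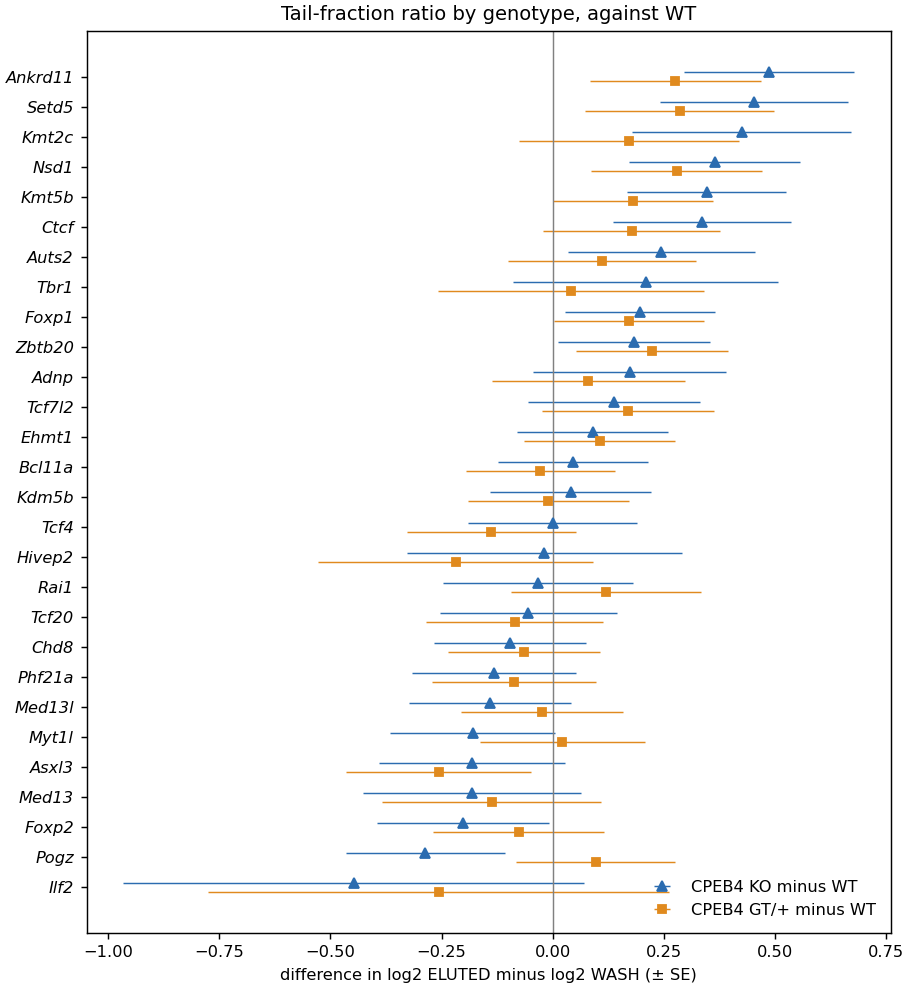
The difference in log2 ELUTED minus log2 WASH from WT is shown with its SE for CPEB4 KO (triangles) and CPEB4 GT/+ (squares), with the 28 genes ordered by the CPEB4 KO value. The CPEB4 KO values run from -0.45 for Ilf2 to 0.49 for Ankrd11, and none passed the adjusted test.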

How the data were processed

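The 18 arrays hold 6 animals and 3 fractions. Per the submitters' processing notes, the authors used RMA (no version given), and the deposited values are on the log2 scale. RMA scales arrays against each other, so total poly(A) RNA was not measured. The labels' series text names PrimeView arrays, while the probe set names carry the PM mark of another design, whose gene table was used.

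Of 45141 probe sets, 28898 carried 1 symbol; 551 with several and 15692 without a symbol, 104 controls included, were left out. A gene's main value came from the probe set whose mean over the arrays was highest. The lowest 25% of genes by that mean (below 5.52, near the highest nonspecific control mean of 5.61) were left out.

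Linear models with genotype means (limma 3.58.1 in R 4.3.3; lmFit, contrasts.fit, eBayes without trend) were fitted to INPUT and to ELUTED minus WASH over 12823 genes in 8 comparisons. All tests were two-sided, with Benjamini-Hochberg adjustment over all genes, and genes with an adjusted p under 0.05 were called. The 6 animals shared 1 estimate of the spread, with 3 residual degrees of freedom. With 2 animals a group, an exact permutation p could not be smaller than 0.333. The fits were tested on simulated data. SE is limma's moderated value and SD is between animals.

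Named genes are the listed genes, Cpeb4, marker genes and, of the partner list, up to 3 called in each direction. Values per animal are given for the largest called ratios, for genotype differences at an unadjusted p under 0.05 without overlap, and for genes chosen after their values were seen. The genes and lists were chosen with earlier results of these data known. No arrays held identical values (0 pairs). Precision is limited by the number of arrays. The alternatives changed the filter, scaling, probe set rule, trend, denominator, fraction, samples and replicate block.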

Additional observations from a re-analysis of the deposited data

Results flagged for a closer look

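In the ratio of ELUTED over WASH, 1 of the 6 animals stood apart from the rest for 2 of the 28 genes, by Dixon's test of the gap to the nearest animal, which chance passes in about 1 in 20 groups. For Rai1 the CPEB4 GT/+ animal 2 had a ratio of 0.629, and the other 5 ran from 0.10 to 0.28. For Hivep2 the same animal had -1.003, and the other 5 ran from -0.29 to 0.05.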

How the results depend on the processing

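Over the 3 genotypes, 12 of the 28 genes were higher and 9 lower in ELUTED, beside 24.9% and 48.5% of all genes. Aligning on the hybridisation controls gave 2 and 16 (1.73% and 74.4% of all genes). Quantile normalization gave 19 and 3 (37.1% and 33%), and INPUT as denominator 6 and 4 (14.6% and 29.5%). With 1 animal left out the median ratio of the 28 genes ran from 0.0044 to 0.10. In WT (5 and 4, beside 4.74% and 22.2% of all genes) the counts were 0 and 6 with aligned arrays, beside 0.265% and 38.7%. They were 10 and 0 with quantile normalization (9.67% and 10.3% of all genes) and 7 and 0 with centred arrays (7.42% and 15.1%). The mean of probe sets gave 4 and 1 (4.62% and 20.9%), and the WT animals fitted alone gave 9 and 8 (16.3% and 42.2%). Over INPUT the counts were 0 and 0 (0.0156% and 0.148%). With aligned arrays 1 gene (Tcf7l2) was higher in INPUT in CPEB4 KO against CPEB4 GT/+. The directions that turned over the 3 genotypes with aligned arrays were those of Bcl11a (-0.0473), Ehmt1 (-0.31), Kmt5b (-0.26), Nsd1 (-0.11), Rai1 (-0.22) and Tcf7l2 (-0.0471), and in WT that of Bcl11a (-0.0149). With quantile normalization Foxp2 (0.0115) and Setd5 (0.0476) turned. Over INPUT Kmt2c (-0.19, and -0.29 in WT), Kmt5b (-0.18), Nsd1 (-0.47) and Setd5 (0.04999) turned. With the mean of probe sets Myt1l turned (0.0733, and 0.0037 in WT). The cause of these shifts was not tested.

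Samples with the same replicate number did not deviate together in every pair of genotypes: r was -0.08 to -0.01 in INPUT, and in the ratio 0.51 for CPEB4 GT/+ with CPEB4 KO but -0.33 and -0.28 for WT with each of them. With the replicate block 11 genes were higher and 9 lower over the 3 genotypes, beside 24.4% and 48% of all genes. In WT the counts with the block were 5 and 5 (5.29% and 25.6%). In the other comparisons 0 of the 28 genes and 0% of all genes were called.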
